A study of Mus musculus with 6 samples.

Results

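Motile cilia genes encode the transcription factors and axonemal parts of the beating cilia found on airway, ependymal and oviduct cells. Here they are 10 genes (Foxj1, Rfx2, Rfx3, Dnah5, Dnah11, Dnaic1, Tekt1, Spag6, Rsph1 and Ccdc39), taken as every non-control probe that carries one of these names, or an older one such as Dnahc5 for Dnah5, on a whole mouse genome array. All 10 were on the array, of 28034 gene names in all, with 19 of its 41174 probes. Thymic epithelial cells (TEC), the stroma that supports and selects developing T cells, were sorted as CD45- EpCAM+ cells from C57BL/6 mice aged 4 weeks. All mice carried the BAC transgene Tg(Meis1-EGFP)FO156Gsat/Mmcd, in which Meis1 regulatory sequence drives EGFP, so that EGFP reports on the transgene and not on the Meis1 protein itself. Meis1-high cells were small and EGFP-bright, Meis1-low cells were large with EGFP at an intermediate level, and Meis1-negative cells were small and showed no EGFP, so reporter and cell size differ together between the 3 gates. Each gate was measured on 2 arrays, each from a pool of 6 mice. The labels do not state whether the gates shared mice.

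A motile cilium is built on a program led by the forkhead factor FOXJ1 together with RFX factors, which bind a promoter element called the X-box. Dynein arms on the microtubule doublets drive the beat, and the radial spokes, the central pair and the nexin-dynein regulatory complex control it. In the thymus, ciliated cells have been described in the medulla, both lining cysts and as a small subset of medullary TEC that resembles the ciliated cells of other epithelia.

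The promoters and probes behind the values below are shown first, since the X-box is a feature that the choice of genes did not use. Windows from 250 bases before to 50 bases after the start site were held for 8 of the 10 genes in the RefSeq table for GRCm38.p6, under the symbol Spag6l for Spag6. An X-box was searched as GTTNCC, then 0 to 3 bases, then NGNNAC, on both strands. The 8 genes had 9 windows, since Tekt1 had a further window, which held no match. An X-box was present in 4 of the 9 windows, from 4 genes (Tekt1, Dnaic1, Rfx2 and Spag6l), against 5.39% of all 32851 windows. The 6-letter part GTTGCC alone, which overlaps the X-box, was in 4 of the 9 windows and in 12.5% of all windows. The forkhead core TGTTTA was in 2 of the 9 windows (Dnah5 and Dnah11) and in 13.4% of all windows. These are matches of letters only, and none was tested for binding. The stretches from 100 bases to 1 base before the start of Tekt1 (GRCm38.p6, chr11:72361883-72361982, minus strand) and Dnaic1 (chr4:41569694-41569793, plus strand) show the matches closest to a start site, with the X-box and GTTGCC matches in capitals. The sites of Rfx2 (chr17:56831110-56831124, minus strand, from 116 to 102 bases before the start) and Spag6l (chr16:16829316-16829329, minus strand, bases 35 to 48 after it) are given alone.
Tekt1: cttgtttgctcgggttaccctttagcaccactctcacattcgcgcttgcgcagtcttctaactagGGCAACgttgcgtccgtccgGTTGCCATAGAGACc
Dnaic1: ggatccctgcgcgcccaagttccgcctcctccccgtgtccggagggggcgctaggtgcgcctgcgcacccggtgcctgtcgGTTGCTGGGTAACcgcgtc
Rfx2: GTTGCCGGGCGCAAC
Spag6l: GTTGCCCTGGAGAC

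Each probe is a 60-base oligonucleotide, and the positions that follow are those of the files, on mm9. The sequences of 4 are printed because several of the values below were read from them. Rfx3 probe A (chr19:27900579-27900638, minus strand) is 1 of 4 Rfx3 probes. Dnah5 probe A (chr15:28317652-28317711, plus strand) lies upstream of probe C of the same gene (chr15:28401496-28401555). Tekt1 probe A (chr11:72159255-72165359, minus strand) and the Rsph1 probe (chr17:31410354-31410515, minus strand) cover 6105 and 162 genomic bases with 60 bases of probe, so each crosses an intron. Exon and UTR annotation on mm9 was not used here.
Rfx3 probe A: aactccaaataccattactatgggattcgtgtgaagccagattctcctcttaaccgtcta
Dnah5 probe A: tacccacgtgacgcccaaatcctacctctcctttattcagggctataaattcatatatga
Tekt1 probe A: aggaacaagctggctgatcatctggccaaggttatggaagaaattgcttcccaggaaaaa
Rsph1: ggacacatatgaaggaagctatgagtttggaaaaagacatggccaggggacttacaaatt

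A level is the log2 of the background-subtracted signal minus the 75th percentile of its array, so that 0 is the signal at that percentile and 1 unit is a 2-fold difference. The signal at that percentile was between 73.4 and 164.9, and between 53.1% and 69.6% of the spots of an array were well above background by the mark of the scanner software. Replicate arrays correlated across the tested probes, at 0.891 for the Meis1-high pair, 0.913 for the Meis1-low pair and 0.824 for the Meis1-negative pair. Meis1-negative replicate 1 stood apart from the other 5 arrays. The summed scaled signal of 26 tested thymocyte marker probes was 1356 on it, against 35.5 on Meis1-negative replicate 2 and between 11.5 and 18.3 on the arrays of the other gates. The median level of 15 epithelial marker probes was 1.55 on it, against 3.14 on Meis1-negative replicate 2 and 3.44 to 3.81 on the arrays of the other gates, and all 15 were lowest there among the 6 arrays. Pan-leukocyte markers, at a median level of 2.59 and 1.72 in Meis1-negative over 18 probes, were at 0.15 and 0.23 in Meis1-high cells and 0.28 and 0.78 in Meis1-low cells, although all gates were sorted as CD45-. The members' counts, medians and tested differences against Meis1-negative are therefore given with and without that array or by slide, and the part of thymocyte RNA in these results was not tested. In sorted bulk cells, fewer ciliated cells and less RNA per cell cannot be told apart.

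**Figure D1:**
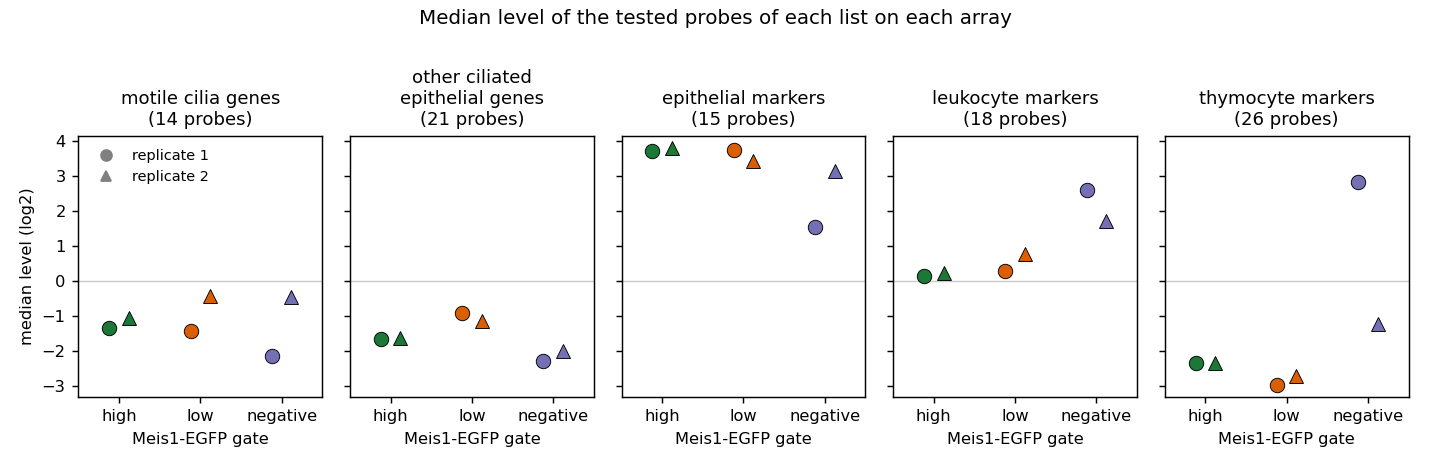
Median level (log2 signal minus the array's 75th percentile) of the tested probes of 5 gene lists, with a point for each of the 6 arrays by gate. Meis1-negative replicate 1 has the highest thymocyte median (2.82) and the lowest median for the epithelial markers (1.55) and the motile cilia genes (-2.16).

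Transcripts of the motile cilia genes were found in every gate. All 10 genes had a probe well above background on both Meis1-low arrays, on Meis1-high replicate 2 and on Meis1-negative replicate 2, and 7 of 10 had one on Meis1-high replicate 1 and on Meis1-negative replicate 1. Of the 19 probes, 7 were well above background on all 6 arrays (the single probes of Foxj1, Dnah11 and Dnaic1, probes A and D of Rfx3, probe C of Dnah5 and probe B of Tekt1) and 1, a Ccdc39 probe, on none. The test took the 14 probes detected in this way on the full pair of arrays of some gate, and they cover all 10 genes. The other 5 probes (probe A of Rfx2, B of Rfx3, B of Dnah5, B of Spag6 and A of Ccdc39) are described only. Of the 14, 3 passed through a single gate (probe B of Rfx2 and probe A of Spag6 through Meis1-low, probe A of Dnah5 through Meis1-high), so for them a difference between gates was built into the selection. The median level of the 14 probes was -1.36 and -1.07 in Meis1-high cells, -1.42 and -0.44 in Meis1-low cells, and -2.16 and -0.47 in Meis1-negative cells. The 3 pairs of medians overlap, so no gate stood apart by the level of these genes. By mean level, Meis1-low came first for 8 of the 14 probes, Meis1-high for 5 and Meis1-negative for 1, while all 3 gates were apart in only 1 of them (Rfx2 probe B).

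**Figure D2:**
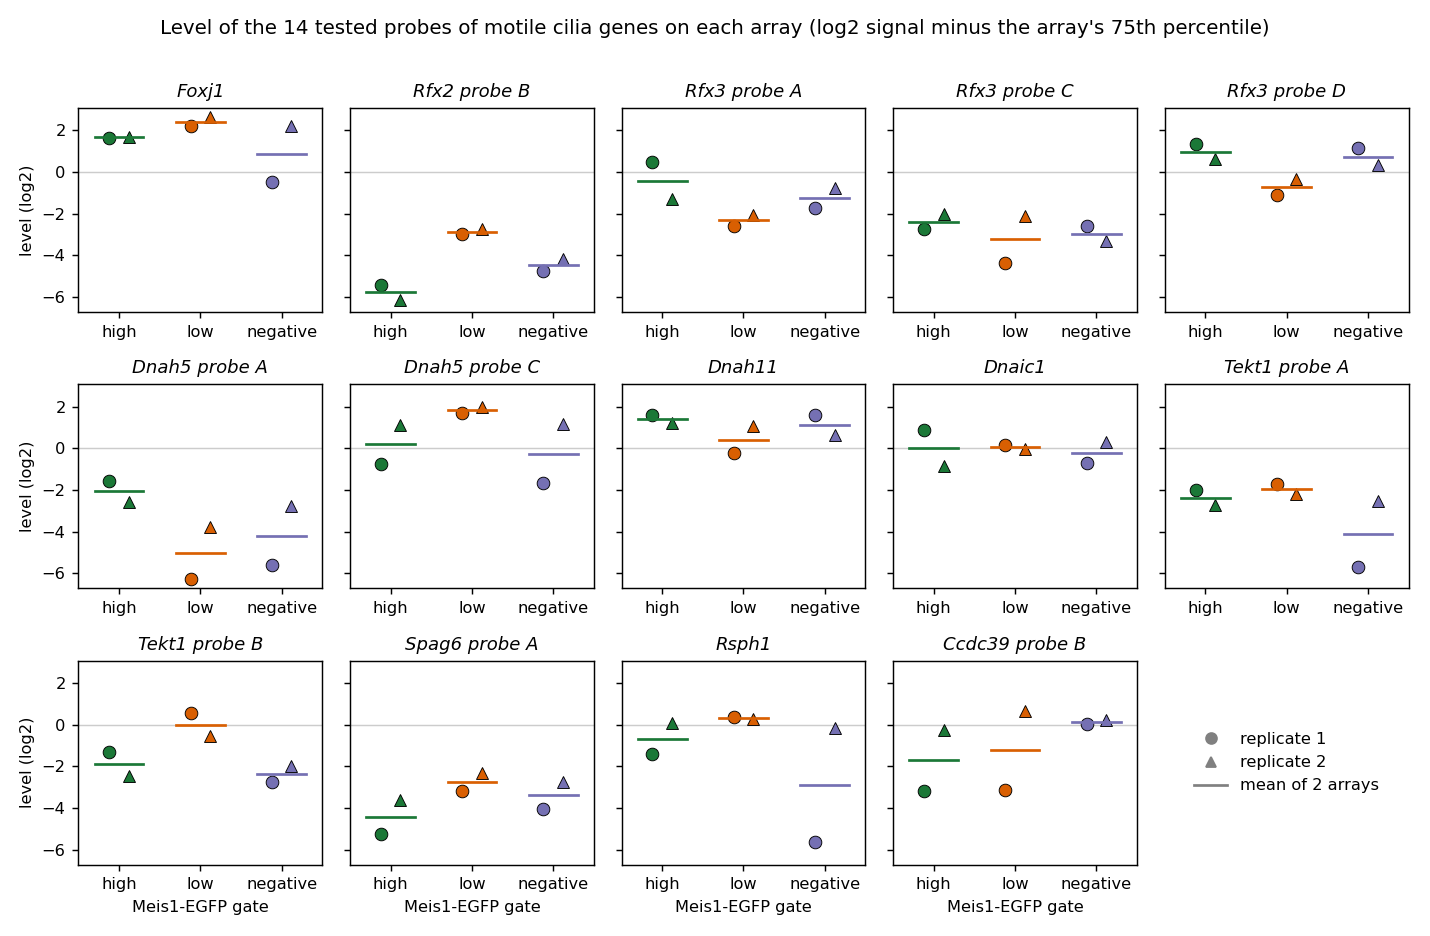
Level (log2 signal minus the array's 75th percentile) of the 14 tested probes in the 3 gates. Circles are replicate 1, triangles replicate 2 and lines the mean of 2 arrays. The wide spread of Foxj1, Rsph1 and Tekt1 probe A in Meis1-negative comes from the low value of its replicate 1.

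No motile cilia gene passed the test in any comparison, and neither did any other probe. With limma, a linear model with moderated variances over all 6 arrays, 0.0% of the 26581 tested probes had a Benjamini-Hochberg adjusted p under 0.05 when Meis1-high was set against Meis1-low, 0.0% when it was set against Meis1-negative, and 0.0% when Meis1-low was set against Meis1-negative. Between Meis1-high and Meis1-low, 5 of the 14 member probes had an unadjusted p under 0.05 (3 higher and 2 lower in Meis1-high), against 12.3% of all tested probes. Of the 7 member probes detected on all arrays, 3 did (Rfx3 probes A and D higher, Tekt1 probe B lower). Between Meis1-high and Meis1-negative it was 0 of 14, against 10.1% of all. Between Meis1-low and Meis1-negative it was 2 of 14 (Rfx2 probe B and Tekt1 probe B, both higher in Meis1-low), against 7.47% of all. When the same probes were fitted without Meis1-negative replicate 1, it was 0 of 14 in both comparisons with that gate, against 7.28% of all for Meis1-high and 3.11% for Meis1-low, and again 0.0% of all probes passed the adjusted test.

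Counts of probes whose arrays did not overlap between gates were as follows. Between Meis1-high and Meis1-low, 4 of the 14 member probes lay higher and 6 lower in Meis1-high on both arrays, against 24.0% and 28.1% of all tested probes. Over all 19 member probes, tested or not, it was 5 higher and 7 lower, against 32.6% and 19.7% of every probe on the array, with a median log2 difference of -0.42. Between Meis1-high and Meis1-negative, 1 lay higher and 2 lower in Meis1-high, against 19.6% and 19.8% of all. Between Meis1-low and Meis1-negative, 6 lay higher and 2 lower in Meis1-low, against 20.9% and 17.7% of all. Without Meis1-negative replicate 1, where a single array stands for that gate, the members were 4 higher and 5 lower in Meis1-high (31.1% and 37.4% of all), and 6 higher and 4 lower in Meis1-low (33.4% and 33.5% of all). Over all 19 member probes on all arrays, 1 lay higher and 3 lower in Meis1-high than in Meis1-negative, against 18.5% and 14.2% of every probe, and 6 lay higher and 3 lower in Meis1-low, against 15.6% and 17.1%. The members therefore split in both directions in each comparison. Their median log2 difference was -0.45 for Meis1-high minus Meis1-low (all tested probes -0.06), 0.45 for Meis1-high minus Meis1-negative (all -0.09) and 0.46 for Meis1-low minus Meis1-negative (all -0.03). Over the same 14 probes without Meis1-negative replicate 1, the second median turned to -0.10, with 7 probes higher and 7 lower in Meis1-high, and the third dropped to 0.05, with 7 higher and 7 lower in Meis1-low. Each pair of comparisons shares the 2 arrays of a gate, so they are not independent of each other.

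**Figure D3:**
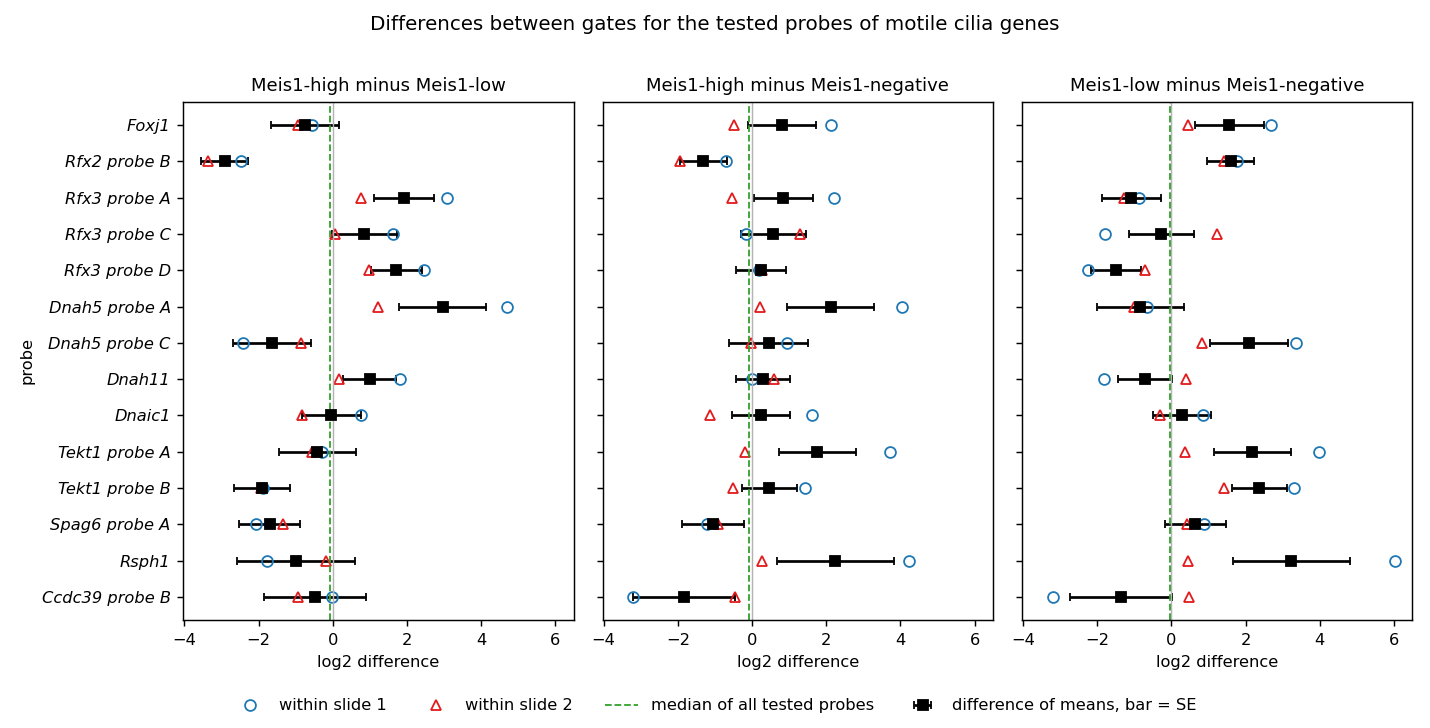
Log2 difference between gates for the 14 tested probes, one panel per comparison. Squares with bars are differences of means with the limma standard error, open circles and triangles the differences within slide 1 and slide 2, and the dashed line is the median of all tested probes (-0.06, -0.09 and -0.03). For Meis1-low minus Meis1-negative, Foxj1 is at 2.69 on slide 1 and 0.45 on slide 2. Values that involve an array on which the probe was not well above background are drawn as measured.

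Foxj1, the forkhead factor that turns on the motile cilia program, had a level of 1.64 and 1.69 in Meis1-high cells, 2.20 and 2.64 in Meis1-low cells, and -0.49 and 2.19 in Meis1-negative cells. Both Meis1-low arrays lay above both Meis1-high arrays and, by a narrow margin, above both Meis1-negative arrays, while the Meis1-negative pair spanned the Meis1-high values. The log2 difference between Meis1-high and Meis1-low was -0.75 ± 0.92 (SE, n = 2 arrays each; limma adjusted p = 0.780), at -0.55 within slide 1 and -0.95 within slide 2. For Meis1-low minus Meis1-negative it was 1.57 ± 0.92 (limma adjusted p = 0.666), with 2.69 on slide 1 and 0.45 on slide 2, and without Meis1-negative replicate 1 it was 0.23. Between Meis1-high and Meis1-negative it was 0.82 ± 0.92 (limma adjusted p = 0.782), and without Meis1-negative replicate 1 it turned to -0.52. The Meis1-high and Meis1-low arrays were thus apart with no use of the array rich in thymocyte transcripts, while the sign between Meis1-high and Meis1-negative turned without it.

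Rfx2 and Rfx3 encode factors that bind the X-box and act with FOXJ1. Rfx2 probe B, which was tested through Meis1-low alone, was at -5.44 and -6.13 in Meis1-high cells, -2.98 and -2.76 in Meis1-low cells, and -4.74 and -4.19 in Meis1-negative cells. It was well above background on both Meis1-low arrays, on 1 Meis1-negative array and on no Meis1-high array, and its gates did not overlap. Since both Meis1-high arrays were not well above background, its level there is only bounded, at a signal at least 1.69-fold lower in Meis1-high than in Meis1-low (measured means -5.79 and -2.87; limma adjusted p = 0.270). The log2 difference between Meis1-low and Meis1-negative was 1.60 ± 0.63 (limma adjusted p = 0.652), and 1.33 without Meis1-negative replicate 1, on which the probe was not well above background. Rfx2 probe A was well above background on 2 arrays, of which 0 in Meis1-low, and was not tested. It was at -5.54 and -2.94 in Meis1-high cells, -6.63 and -4.70 in Meis1-low cells, and -6.01 and -3.78 in Meis1-negative cells, so that Meis1-low was lowest by mean for this probe and highest for probe B.

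Rfx3 probe D was at 1.33 and 0.62 in Meis1-high cells, -1.12 and -0.36 in Meis1-low cells, and 1.13 and 0.35 in Meis1-negative cells. Probe A of the gene, printed above, was at 0.48 and -1.29 in Meis1-high cells, -2.61 and -2.05 in Meis1-low cells, and -1.73 and -0.76 in Meis1-negative cells. In both probes the Meis1-low arrays were the lowest and apart from the other gates, which overlapped each other. Probe D differed by 1.72 ± 0.68 between Meis1-high and Meis1-low (unadjusted p = 0.0369, limma adjusted p = 0.381) and probe A by 1.92 ± 0.80 (unadjusted p = 0.0453, limma adjusted p = 0.398). The third tested probe, C, was at -2.75 and -2.03 in Meis1-high cells, -4.38 and -2.09 in Meis1-low cells, and -2.59 and -3.33 in Meis1-negative cells, and its gates overlapped. All 3 Rfx3 probes had a higher mean in Meis1-high than in Meis1-low, with log2 differences of 0.84 to 1.92, and a lower mean in Meis1-low than in Meis1-negative, with -1.48 to -0.28. Without Meis1-negative replicate 1 the differences between Meis1-low and Meis1-negative were -1.57 for probe A, 0.10 for probe C and -1.09 for probe D. Meis1-low was therefore the gate with the most Foxj1 signal and, over all 6 arrays, the least Rfx3 signal by mean in the tested probes, while the Rfx2 probes differed, and none of these differences passed the adjusted test.

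Dnah5, Dnah11 and Dnaic1 belong to the outer dynein arm, the first pair as heavy chains that carry the motor and the last as an intermediate chain. Dnah5 gave opposite pictures by probe. Probe C, toward the downstream end of the gene, was at -0.74 and 1.12 in Meis1-high cells, 1.69 and 1.98 in Meis1-low cells, and -1.67 and 1.16 in Meis1-negative cells. Probe A was at -1.58 and -2.56 in Meis1-high cells, -6.28 and -3.78 in Meis1-low cells, and -5.62 and -2.77 in Meis1-negative cells. Meis1-low was thus highest by probe C and lowest by mean for probe A, and in both cases it did not overlap Meis1-high. The log2 difference between Meis1-high and Meis1-low was -1.64 ± 1.06 for probe C (limma adjusted p = 0.580) and 2.96 ± 1.17 for probe A (unadjusted p = 0.0376, limma adjusted p = 0.382). Within slides probe C differed by -2.43 and -0.86. Probe A was tested through Meis1-high alone, so a higher level there was built into its selection. It was well above background on 4 arrays, of which 1 in Meis1-low (replicate 2), and within slide 2 it differed by 1.22. The array gives no single direction for Dnah5. A further probe, B, was well above background on 1 array and was not tested.

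Dnah11 was at 1.61 and 1.24 in Meis1-high cells, -0.20 and 1.06 in Meis1-low cells, and 1.61 and 0.66 in Meis1-negative cells. Its Meis1-high arrays lay above those of Meis1-low, by 0.99 ± 0.72 on average (limma adjusted p = 0.626), but the gap was 1.81 on slide 1 and 0.18 on slide 2. Dnaic1 was at 0.90 and -0.84 in Meis1-high cells, 0.15 and -0.01 in Meis1-low cells, and -0.71 and 0.29 in Meis1-negative cells. All gates overlapped for Dnaic1, and its difference between Meis1-high and Meis1-low was -0.04 ± 0.79 (limma adjusted p = 0.990), within the spread of the Meis1-high pair. Both were well above background on all 6 arrays.

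Tekt1, a tektin filament protein of the doublet microtubules, had most signal in Meis1-low by both probes. Probe B was at -1.32 and -2.46 in Meis1-high cells, 0.56 and -0.53 in Meis1-low cells, and -2.75 and -1.96 in Meis1-negative cells. Both Meis1-low arrays lay above all 4 other arrays. The log2 difference was -1.91 ± 0.74 between Meis1-high and Meis1-low (unadjusted p = 0.0356, limma adjusted p = 0.379), and -1.88 on slide 1 and -1.93 on slide 2. For Meis1-low minus Meis1-negative it was 2.37 ± 0.74 (unadjusted p = 0.0143, limma adjusted p = 0.652), with 3.31 on slide 1 and 1.43 on slide 2, and 1.97 without Meis1-negative replicate 1. Meis1-high and Meis1-negative overlapped, with a difference of 0.46 ± 0.74, and 0.06 without that array. Probe A, which crosses an intron, was at -2.01 and -2.73 in Meis1-high cells, -1.73 and -2.17 in Meis1-low cells, and -5.72 and -2.53 in Meis1-negative cells. It showed a like order of means but overlapped between Meis1-high and Meis1-low, where it differed by -0.42 ± 1.04 (limma adjusted p = 0.900), and in Meis1-negative it was well above background on 1 of the 2 arrays. On Meis1-negative replicate 1, the array rich in thymocyte transcripts, probe A was not well above background. Against that array alone it was at least 3.34-fold higher in Meis1-low, with measured levels of -1.95 and -5.72. Within slide 2 the log2 difference was 0.36.

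Rsph1, a protein of the radial spoke head, was at -1.40 and 0.09 in Meis1-high cells, 0.38 and 0.28 in Meis1-low cells, and -5.64 and -0.17 in Meis1-negative cells. It was well above background on every array except Meis1-negative replicate 1. Meis1-low lay above both other gates, but only narrowly above Meis1-high replicate 2 and Meis1-negative replicate 2. The log2 difference was -0.99 ± 1.58 for Meis1-high minus Meis1-low (limma adjusted p = 0.840), 2.25 ± 1.58 for Meis1-high minus Meis1-negative (limma adjusted p = 0.675) and 3.23 ± 1.58 for Meis1-low minus Meis1-negative (limma adjusted p = 0.652). Without Meis1-negative replicate 1 those against Meis1-negative were -0.49 and 0.50. Against that array alone, Rsph1 was at least 8.17-fold higher in Meis1-high and at least 16.2-fold higher in Meis1-low. The measured levels were -0.66 (Meis1-high), 0.33 (Meis1-low) and -5.64 (Meis1-negative replicate 1). These bounds rest on the single array rich in thymocyte transcripts.

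Spag6 is an armadillo repeat protein of the central pair. Its probe A was at -5.25 and -3.63 in Meis1-high cells, -3.17 and -2.30 in Meis1-low cells, and -4.04 and -2.73 in Meis1-negative cells. Both Meis1-high arrays lay below both Meis1-low arrays, and the log2 difference was -1.70 ± 0.83 (limma adjusted p = 0.461), and -1.33 within slide 2. The probe was tested through Meis1-low alone and was not well above background on Meis1-high replicate 1. Probe B, not tested, followed the same order, with gate means of -4.81 (Meis1-high), -3.49 (Meis1-low) and -4.08 (Meis1-negative), and was well above background on 2 arrays. Both probes lie on chromosome 16, at the gene that the RefSeq table for GRCm38.p6 lists as Spag6l.

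Ccdc39, which with CCDC40 sets the spacing of the inner arms and the regulatory complex, varied widely between replicates. Probe B was at -3.16 and -0.25 in Meis1-high cells, -3.14 and 0.68 in Meis1-low cells, and 0.05 and 0.22 in Meis1-negative cells. Its replicate 1 arrays were low in Meis1-high and Meis1-low but not in Meis1-negative. The log2 difference was -1.84 ± 1.38 between Meis1-high and Meis1-negative (limma adjusted p = 0.693), -0.47 within slide 2 and -1.92 without Meis1-negative replicate 1. The probe was not well above background on Meis1-high replicate 1. It is the 1 tested probe of the members with its highest mean in Meis1-negative.

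How closely the members followed Foxj1 over the 6 arrays is given as Pearson's r, as a description, because the points share arrays and one of them decides much of it. The Rsph1 probe had r = 0.964, Tekt1 probe A 0.933 and Dnah5 probe C 0.885, while Dnah11 had -0.546 and Rfx3 probe D -0.616. Over the 5 arrays without Meis1-negative replicate 1 these were 0.632, 0.235 and 0.779, and -0.443 and -0.716. Rfx2 probe B moved to 0.914 from 0.429 and Spag6 probe A to 0.860 from 0.506 when that array was left out. Among 17344 probes outside the lists that were well above background on all arrays, the genes most like Foxj1 were Muc4 (r = 0.997), Wnt10b (0.996), Icam1 (0.996), Nfkbia (0.995) and Acyp2 (0.995). Over the 5 arrays without Meis1-negative replicate 1, which are among those they were picked on, r lay between 0.957 (Acyp2) and 0.994 (Icam1). Picking the highest of 17344 probes over 6 arrays favours a high r, so a likeness beyond that choice was not tested. Muc4, a membrane mucin, was at -1.42 and -1.26 in Meis1-high cells, -0.69 and -0.29 in Meis1-low cells, and -3.41 and -0.88 in Meis1-negative cells, so its 6 values stand in the same order as those of Foxj1.

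The other genes of the cilium were read from lists grouped by role, which also hold the members, and 0 probes of these lists passed the adjusted test in any comparison. Since a probe tested through 1 gate had to be high there, counts of gates that do not overlap are given over every probe of a list, tested or not, and read against the shares of every probe on the array given above. Where a gene has several probes, the values are those of the tested probe with the smallest unadjusted p. Among regulators of multiciliogenesis, 23 probes of 13 genes were tested. Between Meis1-high and Meis1-low, 2 had an unadjusted p under 0.05 in each direction, and their median difference was -0.19, against 0.04 over every probe of the list. Trp73, the p53 relative upstream of Foxj1, was at -2.22 and -2.25 in Meis1-high cells, -2.07 and -3.37 in Meis1-low cells, and -5.10 and -4.81 in Meis1-negative cells. This probe was not well above background on either Meis1-negative array. The other tested Trp73 probe was well above background on all 6 arrays, at -0.26 and -0.67 in Meis1-high cells, -1.30 and -0.71 in Meis1-low cells, and -3.27 and -0.76 in Meis1-negative cells, so it lay close together on slide 2. Plk4, the kinase that starts centriole duplication, was at -4.81 and -2.81 in Meis1-high cells, -1.65 and -1.70 in Meis1-low cells, and -0.48 and -1.82 in Meis1-negative cells. Its other tested probe, detected on all 6 arrays, had smaller gaps, at -0.40 and -1.32 in Meis1-high cells, -0.19 and -0.13 in Meis1-low cells, and 0.10 and 0.02 in Meis1-negative cells. Plk4 also acts in dividing cells, and whether division plays a part in these values was not tested. Cell size and reporter differ together between the gates.

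Of the axonemal dyneins, 21 of 47 probes were tested, 11 of them through a single gate. Over all 47 probes, 12 lay higher and 12 lower in Meis1-high than in Meis1-low on both arrays, against 32.6% and 19.7% of every probe. The median difference was 0.20. It was -0.29 over the tested probes and -0.04 over the 9 detected on all 6 arrays, so its sign depended on the probes taken. Dnah2, an inner arm heavy chain, was at -2.42 and -2.18 in Meis1-high cells, 1.24 and 0.44 in Meis1-low cells, and -1.90 and -0.48 in Meis1-negative cells. Both Meis1-low arrays lay above all others, with a difference of -3.14 ± 0.73 between Meis1-high and Meis1-low (unadjusted p = 0.00300, limma adjusted p = 0.270). Both tested Dnah6 probes and 1 of the 4 Dnah1 probes, also of inner arm heavy chains, were well above background only on the Meis1-low arrays, at -3.43 and -2.63 for a Dnah6 probe and -3.12 and -3.58 for the Dnah1 probe. These were at least 1.51-fold (Dnah6) and 1.21-fold (Dnah1) lower in Meis1-high than in Meis1-low, and each was tested through Meis1-low alone. Another Dnah1 probe was well above background on 1 Meis1-low array and 1 Meis1-negative array. Of the dynein assembly and docking factors, 7 of 18 probes were tested. The docking protein gene Ccdc151 was at -5.41 and -4.53 in Meis1-high cells, -3.36 and -3.79 in Meis1-low cells, and -5.89 and -4.78 in Meis1-negative cells. It was well above background on the Meis1-low arrays only and tested through that gate alone. The bound was only 1.03-fold lower in Meis1-high than in Meis1-low. Zmynd10, an assembly factor, was at -1.77 and -3.51 in Meis1-high cells, -2.74 and -2.72 in Meis1-low cells, and -5.14 and -3.37 in Meis1-negative cells. The assembly factor Spag1 was at -3.45 and -2.53 in Meis1-high cells, -2.24 and -1.79 in Meis1-low cells, and -5.66 and -2.84 in Meis1-negative cells.

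In the radial spoke and central pair list, 23 of 43 probes were tested. Over all 43, 10 lay higher and 14 lower in Meis1-high than in Meis1-low on both arrays, against 32.6% and 19.7% of every probe. The median difference was -0.30. Ropn1l, a radial spoke protein, was at -5.02 and -5.90 in Meis1-high cells, -1.50 and -1.16 in Meis1-low cells, and -2.21 and -2.74 in Meis1-negative cells. It was not well above background on either Meis1-high array and at least 4.90-fold lower there than in Meis1-low (measured means -5.46 and -1.33; limma adjusted p = 0.270). Drc1, a scaffold of the nexin-dynein regulatory complex, was at -4.95 and -1.41 in Meis1-high cells, 0.35 and 0.15 in Meis1-low cells, and -1.09 and -0.79 in Meis1-negative cells. Nme5, a radial spoke protein, was at -1.72 and -1.36 in Meis1-high cells, -0.50 and -0.42 in Meis1-low cells, and -3.40 and -1.80 in Meis1-negative cells. In all 3 the Meis1-low arrays lay above every other array, but they were named for their small unadjusted p, which favours gates that lie apart. A second Ropn1l probe was well above background on no array and was not tested.

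Among doublet microtubule and tektin genes, 19 of 23 probes were tested. Over all 23, 4 lay higher and 11 lower in Meis1-high than in Meis1-low on both arrays, against 32.6% and 19.7% of every probe. The median difference was -0.63, and over the 7 detected on all 6 arrays it was also -0.63. Cfap53, a protein inside the doublets, was at -2.37 and -1.86 in Meis1-high cells, 0.34 and 0.17 in Meis1-low cells, and -4.30 and -1.61 in Meis1-negative cells. Mns1, another inner protein of the doublets, was at -1.25 and -0.28 in Meis1-high cells, 1.85 and 1.53 in Meis1-low cells, and 2.43 and 1.44 in Meis1-negative cells, so that its low gate was Meis1-high alone. The difference for Mns1 was -2.45 ± 0.69 between Meis1-high and Meis1-low (limma adjusted p = 0.288). Between Meis1-high and Meis1-negative it was -2.70 ± 0.69 (limma adjusted p = 0.326), and -2.21 without Meis1-negative replicate 1.

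Among other genes of ciliated epithelia, 21 of 31 probes were tested, 6 through a single gate. Between Meis1-low and Meis1-negative, 13 of 21 lay higher and 0 lower in Meis1-low on both arrays, against 20.9% and 17.7% of all tested probes. Their median difference was 1.45. Over the same probes without Meis1-negative replicate 1 it was 0.79, with 20 of 21 higher by mean in Meis1-low. Probes tested through Meis1-low alone had to be high there. Over all 31 probes, 13 lay higher and 4 lower, against 15.6% and 17.1% of every probe on the array. Without Meis1-negative replicate 1, 24 of these 31 were higher and 7 lower by mean in Meis1-low, with a median of 0.47. Over the 9 probes detected on all 6 arrays the median was 1.34, and 0.79 without that array. Between Meis1-high and Meis1-low, 5 of all 31 lay higher and 9 lower, against 32.6% and 19.7% of every probe, with a median of -0.15. That median was -0.83 over the tested probes and -0.10 over the 9 detected on all 6 arrays. Fank1, a gene of multiciliated and germ cells, was at -5.14 and -4.98 in Meis1-high cells, -0.05 and -1.44 in Meis1-low cells, and -3.63 and -2.09 in Meis1-negative cells. It was not well above background on either Meis1-high array, where it was at least 7.33-fold lower than in Meis1-low (measured means -5.06 and -0.75; limma adjusted p = 0.270). Fank1 was tested through Meis1-low alone, so a high level there was built into its selection. Cfap65 was at -4.12 and -1.47 in Meis1-high cells, -0.42 and 0.56 in Meis1-low cells, and -2.30 and -0.24 in Meis1-negative cells. Dydc2 was at -4.40 and -3.97 in Meis1-high cells, -4.03 and -3.46 in Meis1-low cells, and -5.90 and -6.51 in Meis1-negative cells. It was well above background on the Meis1-low arrays only and was tested through that gate alone, but Meis1-high and Meis1-low overlapped.

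**Figure D4:**
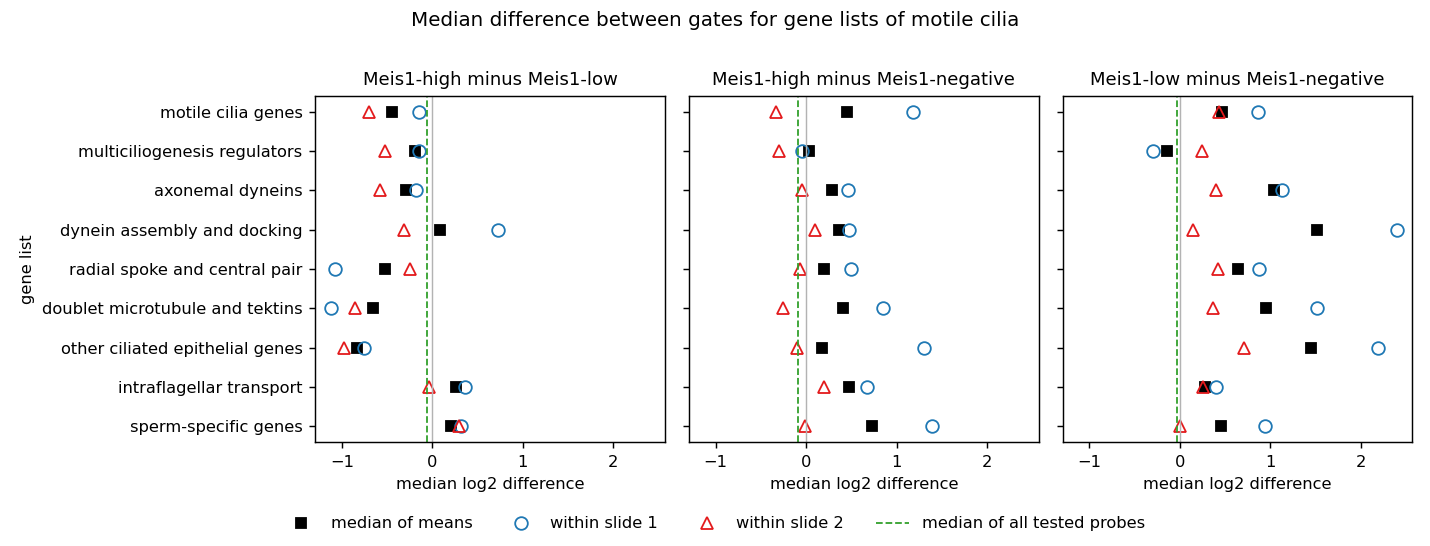
Median log2 difference between gates over the tested probes of 9 gene lists, one panel per comparison. Squares are differences of gate means, open circles and triangles the medians within slide 1 and slide 2. The median for other ciliated epithelial genes between Meis1-low and Meis1-negative is 1.45, with 2.19 on slide 1 and 0.71 on slide 2.

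Counting the members as 1 of 7 groups of cilium genes, the median between Meis1-high and Meis1-low was negative for 4 of the 7 over every probe (members, radial spokes and central pair, doublets and tektins, and other ciliated epithelial genes). It was positive there for the regulators (0.04), axonemal dyneins (0.20) and assembly and docking factors (0.03). The members are also held in the lists of regulators, axonemal dyneins, radial spokes and central pair, and doublets and tektins, so the 7 groups are not independent. Over the tested probes, and likewise over those detected on all 6 arrays, it was negative for 6 of the 7, with dynein assembly and docking as the exception (0.09 and 0.70). On slide 1, which holds the array rich in thymocyte markers, the tested probes' medians against Meis1-negative were larger than on slide 2. This held for all 7 groups in the comparison with Meis1-high. It held for 6 of the 7 in that with Meis1-low, the regulators being the exception. The regulators include Myb, whose brightest probe was at 7.77 on Meis1-negative replicate 1 and 4.00 on Meis1-negative replicate 2. The part of Myb in that exception was not tested. Between Meis1-low and Meis1-negative the slide 2 medians of the tested probes were 0.44 for the members, 0.40 for the axonemal dyneins and 0.42 for radial spokes and central pair. They were 0.36 for doublets and tektins, 0.71 for other ciliated epithelial genes, 0.24 for the regulators and 0.14 for assembly and docking. Over every probe without Meis1-negative replicate 1, the 7 medians of this comparison ran from -0.0068 (members) to 0.47 (other ciliated epithelial genes). The median over all tested probes was close to 0 in each comparison. For comparison, Meis1 itself, by its brighter probe, was at 0.24 and 0.12 in Meis1-high cells, -2.35 and -1.61 in Meis1-low cells, and -3.20 and -0.99 in Meis1-negative cells, so its transcript followed the gate in Meis1-high while Meis1-low and Meis1-negative overlapped.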

How the data were processed

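Total RNA of sorted thymic epithelial cells was amplified from 10 ng and labelled with Cy3, per the labels' protocols, and hybridised to 6 one-colour arrays. Agilent Feature Extraction 9.5.3.1 read the scans, per the submitters' processing notes. Per the file headers, the deposited signal is an intensity that was background-subtracted and detrended within its array, with no scaling across arrays. The deposited value table of the authors holds log2 values centred on each probe's median, which correlated with the scanner values centred in the same way at 0.99984 or above. Its scaling is not stated in the sources used here, and it served as an alternative.

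Control spots and the 53 to 78 spots per array marked as outliers were left out, spots were averaged per probe on the log2 scale, and each array's 75th percentile was subtracted. The test took probes well above background on the full pair of arrays of some gate (26581 of 41174). Between 15.5% and 28.2% of the spots of an array carry a surrogate value, so dim levels are uncertain. Gates were compared with limma 3.58.1 in R 4.3.3 on all 6 arrays (3 residual degrees of freedom), with Benjamini-Hochberg adjustment over all tested probes and a threshold of 0.05. The code was tested on simulated data. A lower bound on a fold takes, on each array of the dim gate, the higher of the lowest signal well above background and the probe's own. Tables and figures were made in Python 3.11.15 with pandas 2.3.3 and matplotlib 3.10.9.

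Per the file headers, the 3 arrays numbered 1 lay on a common slide and scan and the 3 numbered 2 on another, so slide, scan and replicate number are 1 block. Deviations of same-numbered arrays correlated at 0.199, 0.120 and 0.111 between the gates. The number of arrays limits the precision, and p-values measure the spread between 2 pools a gate.

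The members, the gene lists and the alternatives were chosen with earlier results of these data known, so no count here is independent support for an earlier one. All members are named. Of each other list, up to 3 genes with the smallest unadjusted p in any comparison are named, together with the 5 probes most correlated with Foxj1. Alternatives covered background correction, scaling, filters, the block, the choice of probe, the authors' table, array weights, the variance model, the threshold, outlier spots and each array left out in turn. Counts and fits of the same probes without Meis1-negative replicate 1, and counts over every probe, were added after seeing the data.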

Additional observations from a re-analysis of the deposited data

How the results depend on the processing

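With 2 arrays a gate and dim probes, the data can resolve large differences only. No motile cilia gene was called under any setting tried, except without Meis1-negative replicate 2, where the lone array rich in thymocyte transcripts is assumed to vary like the other gates. Over the arrays left out in turn, called genes ranged from 0 to 1 between Meis1-high and Meis1-negative (Rsph1) and from 0 to 2 between Meis1-low and Meis1-negative (Rsph1 and Tekt1). Without Meis1-negative replicate 2, 952 and 896 of all probes were called in these comparisons, against 0 with it. Over all probes, normexp background correction called 273, 394 and 171 (Meis1-high minus Meis1-low, Meis1-high minus Meis1-negative and Meis1-low minus Meis1-negative), median scaling 0, 78 and 15, the robust variance trend 0, 4 and 0, and a threshold of 0.10 called 0, 0 and 3. Median scaling moved the median of all probes to -0.19 between Meis1-high and Meis1-negative, against -0.09. With the replicate block as a term of the fit, 0 genes were called and the medians were -0.45, 0.45 and 0.46, and the block changed no other call. The pairing is that of slides.

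The median between Meis1-high and Meis1-low was -0.17 under normexp, against -0.45. With arrays left out it ranged from -0.95 (without Meis1-low replicate 1) to -0.24 (without Meis1-high replicate 1). It was -0.87 with 1 probe per gene and -0.42 with no filter. That between Meis1-high and Meis1-negative lay between -0.46 (Meis1-negative replicate 1 left out, 17 probes) and 0.80 (Meis1-negative replicate 2 left out). That between Meis1-low and Meis1-negative lay between -0.0068 (Meis1-negative replicate 1 left out) and 1.18 (Meis1-low replicate 1 left out), and was 1.11 with 1 probe per gene. Under normexp, Spag6 turned to 0.076 and Rfx2 to 0.23 between Meis1-high and Meis1-negative. The cause was not tested.

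Signs of single genes also turned with the array left out, taking the brightest probe. Between Meis1-high and Meis1-low, Ccdc39 ranged from -2.39 to 1.43 and Dnaic1 from -0.91 to 0.83. Between Meis1-high and Meis1-negative, Foxj1 ranged from -0.52 to 2.16, Rfx3 from -0.15 to 0.62, Dnah5 from -0.97 to 1.86, Dnah11 from -0.19 to 0.76, Dnaic1 from -0.63 to 1.11, Tekt1 from -0.11 to 1.03 and Rsph1 from -0.49 to 4.98, the last against a spot not well above background. Between Meis1-low and Meis1-negative, Ccdc39 ranged from -3.27 to 0.55, Dnaic1 from -0.22 to 0.78 and Spag6 from -0.0068 to 1.30.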

Other observations

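Genes of intraflagellar transport, which build primary as well as motile cilia, were read in the same way, with 43 of 59 probes tested. Over all 59, 16 lay higher and 9 lower in Meis1-high than in Meis1-low on both arrays, against 32.6% and 19.7% of every probe. The median log2 difference was 0.41. It was 0.26 over the tested probes, with -0.04 within slide 2, and 0.14 over the 33 detected on all 6 arrays. Between Meis1-high and Meis1-negative, 17 of the tested probes lay higher and 5 lower (all tested probes 19.6% and 19.8%), with a median of 0.48. Without Meis1-negative replicate 1 it was 24 and 8 (all tested probes 31.1% and 37.4%), with a median of 0.39. A difference between this list and the axonemal ones was not tested. One of the 4 tested probes of Dync2h1, the heavy chain of the retrograde transport motor, was at -2.16 and -2.53 in Meis1-high cells, -6.13 and -5.97 in Meis1-low cells, and -5.49 and -5.44 in Meis1-negative cells. This probe was well above background on the Meis1-high arrays only, at least 3.72-fold higher than in Meis1-low (limma adjusted p = 0.270), and was tested through that gate alone. The brightest Dync2h1 probe was well above background on all 6 arrays, at 1.69 and 0.36 in Meis1-high cells, 0.17 and 0.53 in Meis1-low cells, and -0.22 and 0.17 in Meis1-negative cells, with Meis1-high and Meis1-low overlapping. Ift81, a subunit of the transport train, was at -2.17 and -2.06 in Meis1-high cells, -3.60 and -2.59 in Meis1-low cells, and -5.55 and -3.60 in Meis1-negative cells. Ift57, also a subunit of the train, was at 1.13 and 2.17 in Meis1-high cells, 3.34 and 3.07 in Meis1-low cells, and 3.17 and 2.62 in Meis1-negative cells, with Meis1-high lowest by mean.

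Genes of sperm, which share the axoneme but not the epithelium, were tested with 10 of 23 probes, and 0 of the 10 had an unadjusted p under 0.05 in any comparison. The sperm glycolytic gene Gapdhs was at -0.79 and -1.67 in Meis1-high cells, -2.71 and -1.93 in Meis1-low cells, and -3.31 and -2.12 in Meis1-negative cells. Its other tested probe overlapped between Meis1-high and Meis1-low, at 0.17 and -0.85 in Meis1-high cells, 0.45 and -1.48 in Meis1-low cells, and -0.83 and -1.26 in Meis1-negative cells. The kinase gene Tssk6 was at -0.39 and -1.18 in Meis1-high cells, -1.84 and -1.51 in Meis1-low cells, and -2.05 and -1.51 in Meis1-negative cells. Prm1, a protamine gene, had its highest mean in Meis1-high by its brightest probe, at 0.76 and -0.14 in Meis1-high cells, -0.64 and -0.74 in Meis1-low cells, and -0.37 and -0.65 in Meis1-negative cells. The probe with the smallest p had it in Meis1-low, at -3.10 and -3.83 in Meis1-high cells, -2.70 and -2.88 in Meis1-low cells, and -5.89 and -3.25 in Meis1-negative cells.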
